A study of Mus musculus with 8 samples.

Results

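The genes described here are 10 genes of the hair follicle, followed through RNA of mouse eyes on 8 Affymetrix expression arrays. They are Krt71, Krt25 and Tchh of the inner root sheath, the hair shaft keratins Krt81, Krt33a, Krt35 and Krt32, and the hair shaft proteins Krtap8-1, Krtap15 and S100a3. Each has 1 probe set, so the 10 genes are 10 probe sets, among 12393 genes named by a single symbol on the array. The genes were picked by symbol, with results of these arrays in view: their high values on some arrays of 5 days led to their choice. Values of 5 days are therefore given as a description, without a test.

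The titles give KPAW eyes and wild-type eyes at 1 month and at 5 days, and every one of these 4 groups has an array I and an array II. What KPAW stands for is not stated, no allele or driver is named, and a C57Bl6 background is stated for the wild-type eyes of 5 days and for no other group. Total RNA of the eyes was prepared with Trizol and cleaned with RNeasy. Nothing says whether the arrays of a group came from separate animals, whether RNA was pooled, or which tissue around the globe was kept, so every p-value below measures only the spread between these arrays.

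A hair follicle builds a hardened shaft inside a sheath that is later shed. Cells of the cortex and cuticle of the shaft fill with hair keratins, which keratin-associated proteins cross-link through cysteine bonds. The inner root sheath, which moulds the growing shaft, uses its own keratins and trichohyalin, the product of Tchh. The cornea and retina carry no hair, while the skin of the eyelids does. Surface keratins mark the stratified epithelia of that region: Krt1 and Krt10 the upper epidermis, Krt5 and Krt14 its basal layer, Krt12 the cornea, and Krt4 and Krt13 the conjunctiva.

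RefSeq promoter windows, 250 bases before and 50 bases after a transcript start (build GRCm38.p6), were held for 7 of the 10 genes. Krt81, Krt33a and Krt35 had none in the table used. The windows of 4 genes are printed because they hold, between them, the 2 motifs searched. Capitals mark a LEF1/TCF-type motif spelled CTTTGAA. They also mark a TATA box motif, which is spelled TATAAA. Both strands were searched. The motifs do not overlap each other in these windows.
Tchh, chr3:93442080-93442379, plus strand: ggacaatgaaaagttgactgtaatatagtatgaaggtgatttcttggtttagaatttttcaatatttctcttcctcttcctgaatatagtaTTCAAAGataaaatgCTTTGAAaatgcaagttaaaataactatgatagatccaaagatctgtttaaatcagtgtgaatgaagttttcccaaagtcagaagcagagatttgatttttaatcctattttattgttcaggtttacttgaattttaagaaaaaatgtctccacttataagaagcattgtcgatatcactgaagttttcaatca
Krt32, chr11:100088220-100088519, minus strand: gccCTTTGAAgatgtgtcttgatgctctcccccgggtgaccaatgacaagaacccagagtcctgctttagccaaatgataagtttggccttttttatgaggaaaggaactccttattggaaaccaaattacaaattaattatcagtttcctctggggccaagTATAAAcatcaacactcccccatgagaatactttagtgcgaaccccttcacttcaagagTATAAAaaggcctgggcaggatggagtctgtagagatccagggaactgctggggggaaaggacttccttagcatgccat
Krtap15, chr16:88828759-88829058, plus strand: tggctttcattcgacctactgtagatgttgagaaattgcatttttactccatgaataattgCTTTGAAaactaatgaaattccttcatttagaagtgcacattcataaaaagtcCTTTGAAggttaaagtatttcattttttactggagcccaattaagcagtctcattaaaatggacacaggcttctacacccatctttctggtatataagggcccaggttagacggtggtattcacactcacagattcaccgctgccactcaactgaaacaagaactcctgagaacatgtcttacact
Krtap8-1, chr16:89487903-89488202, minus strand: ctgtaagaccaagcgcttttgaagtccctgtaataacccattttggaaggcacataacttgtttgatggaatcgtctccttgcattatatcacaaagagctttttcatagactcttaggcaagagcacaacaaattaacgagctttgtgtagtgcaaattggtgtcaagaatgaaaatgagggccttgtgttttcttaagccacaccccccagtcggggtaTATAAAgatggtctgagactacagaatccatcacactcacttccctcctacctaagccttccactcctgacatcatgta

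CTTTGAA was found in 3 of the 7 genes, with 2 matches in Tchh, 2 in Krtap15 and 1 in Krt32. It occurs in 5.14% of the 32851 RefSeq promoter windows of this length. TATAAA was found in a window of 5 genes, namely Krtap8-1, Krt71, Krt25, Krt32 and S100a3, against 13.6% of all windows. S100a3 has 4 windows, of which 1 holds it. A match describes the letters of the window and is no evidence of binding. In the RefSeq table, 4 of the 10 genes (Krt25, Krt32, Krt33a and Krt35) lie on chromosome 11, and Krt71 and Krt81 lie on chromosome 15. Krtap8-1 and Krtap15 share chromosome 16, and Tchh and S100a3 share chromosome 3.

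Values are scaled signals: the deposited signal of a probe set after each array was brought to a common trimmed mean. The lowest listed signal was 0.01 on every array, and 9.997% to 14.9% of an array's probe sets stood at it. Differences between arrays are on the scale of log2(scaled signal + 0.0211), which understates changes of dim probe sets. Replicate arrays of a group correlated over all probe sets kept at 0.927 to 0.969. Lens genes were present on every array, with summed scaled signals of 32.3 to 51.0 over 7 genes. Summed retina signals over 8 genes were 1.25 on array I of the KPAW eyes of 1 month, against 23.5 to 28.9 on the other 3 arrays of that age. The arrays of 5 days were not alike in sex-linked transcripts either: Xist, the RNA that silences an X chromosome, had 0.0821 and 3.13 on KPAW arrays I and II, against 2.95 and 3.64 on wild-type arrays I and II. In RNA of whole tissue, fewer cells of a type and less RNA per cell cannot be told apart.

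At 5 days, the hair genes were highest on wild-type array I, intermediate on KPAW array I and low on both arrays numbered II. All 10 genes had this order after scaling, against 7.36% of the 15838 probe sets kept. That share is given for scale only because these arrays led to the choice of the genes. In the deposited values, KPAW array II was above KPAW array I for Krt81 (0.175 against 0.151) and Krt32 (0.103 against 0.0946). Their summed scaled signal was 1.62 and 0.512 on KPAW arrays I and II, against 8.14 and 0.453 on wild-type arrays I and II. The lowest and the highest sum of that age were thus both those of wild-type eyes. Array I exceeded array II by a median of 1.56 log2 units in KPAW eyes (0.14 to 2.67) and 3.94 in wild-type eyes (1.06 to 4.96). Over all probe sets kept, the same medians were -0.03 and -0.02.

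**Figure D1:**
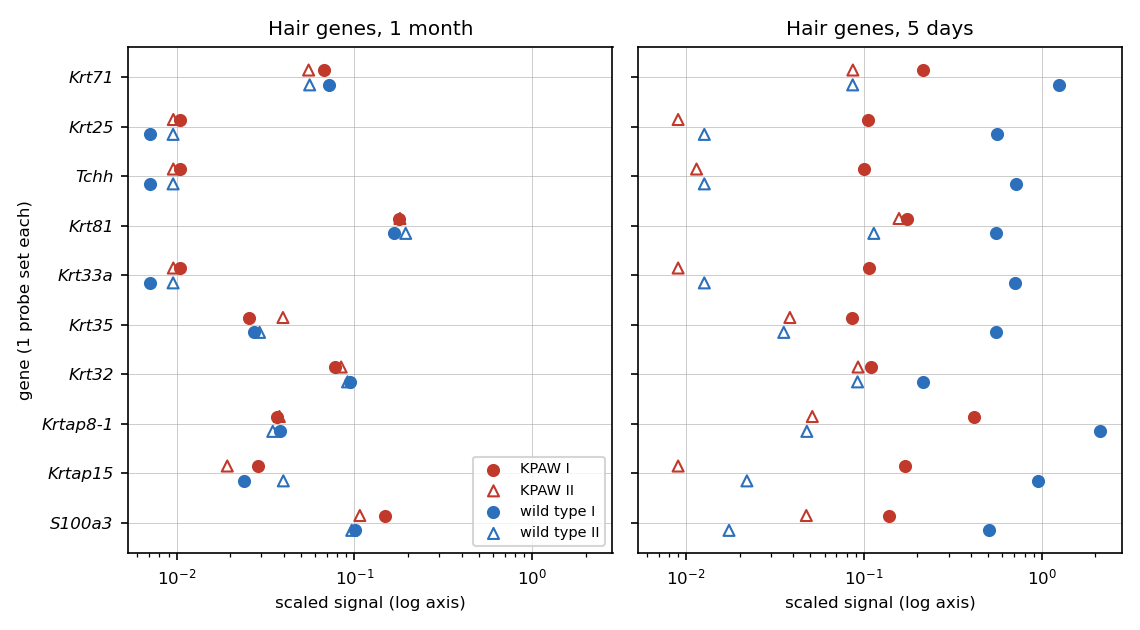
Scaled signal of the 10 hair genes on each array (log axis), with 1 month on the left and 5 days on the right. Red stands for KPAW and blue for wild type, filled circles for array I and open triangles for array II. At 5 days every gene is highest on wild-type array I, next on KPAW array I, and lowest on the arrays numbered II. Before scaling, Krt81 and Krt32 are higher on KPAW array II than on KPAW array I.

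Of the inner root sheath genes, Krt71, a type II keratin of all sheath layers, had scaled signals of 0.214 and 0.0866 on KPAW arrays I and II, against 1.26 and 0.0864 on wild-type arrays I and II. Both arrays II were alike, and KPAW array I reached 17.0% of wild-type array I. Krt25, a type I keratin of the same sheath, had 0.106 and 0.00901 in KPAW eyes, against 0.557 and 0.0127 in wild-type eyes. Both of its arrays numbered II stood at the lowest listed signal. Tchh encodes trichohyalin, a protein that fills sheath and medulla cells and is then cross-linked to keratin. Its scaled signals were 0.0999 and 0.0114 in KPAW eyes, against 0.717 and 0.0127 in wild-type eyes. The KPAW value on array I was 13.9% of the wild-type one, the smallest share among the 10 genes.

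Among the hair shaft keratins, Krt33a, a type I keratin of the cortex, had scaled signals of 0.107 and 0.00901 on KPAW arrays I and II, against 0.710 and 0.0127 on wild-type arrays I and II. It stood at the lowest listed signal on both arrays II. Krt35, a type I keratin that appears early as cells enter the shaft, had 0.0853 and 0.0383 in KPAW eyes, against 0.555 and 0.0354 in wild-type eyes. Its 2 arrays of KPAW eyes differed by 0.84 log2 units and those of wild-type eyes by 3.35. Krt81, a type II keratin of the cortex, had 0.175 and 0.157 in KPAW eyes, against 0.556 and 0.114 in wild-type eyes. Krt32, a type I keratin known from human hair as one of the cuticle, had 0.110 and 0.0926 in KPAW eyes, against 0.215 and 0.0920 in wild-type eyes. For Krt81 and Krt32 the KPAW arrays differed by 0.14 and 0.20 log2 units, so that only wild-type array I stood clearly apart. The type II hair keratins are near copies of each other, and whether the Krt81 probe set also reads a relative was not tested.

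Of the other shaft proteins, Krtap8-1, a small keratin-associated protein rich in glycine and tyrosine, had scaled signals of 0.417 and 0.0512 on KPAW arrays I and II, against 2.13 and 0.0477 on wild-type arrays I and II. Its difference of 4.96 log2 units between the wild-type arrays was the widest among the 10 genes. Krtap15, another keratin-associated protein of the shaft, had 0.171 and 0.00901 in KPAW eyes, against 0.949 and 0.0220 in wild-type eyes. S100a3, a cysteine-rich calcium-binding protein of the cuticle, had 0.138 and 0.0474 in KPAW eyes, against 0.504 and 0.0174 in wild-type eyes. On the arrays numbered II, S100a3 was higher in KPAW eyes by 0.83 log2 units, and Krtap15 was lower by 0.52. The median difference of the 10 genes between these arrays, KPAW II minus wild type II, was 0.01, whereas KPAW I minus wild type I had a median of -2.32 (-2.61 to -0.85).

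A difference of more than 1 log2 unit between arrays I and II was seen for 7 of the 10 genes in KPAW eyes, where 2.2% of all probe sets kept had it. In wild-type eyes 10 of 10 had it, against 1.02% of all probe sets. Both the order of the arrays and this size in both kinds of eye were met by 7 of the 10 genes and by 0.36% of all probe sets. Krt32 lay closest to the size of 1 log2 unit in wild-type eyes, just above it at 1.06. In KPAW eyes Krt71 lay just above it at 1.12 and Krt35 just under it at 0.84.

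The hair genes outside these 10 were counted from the symbols of the remaining hair keratins, root sheath keratins and keratin-associated proteins, of which 35 of 44 were on the array. The order of the arrays was the same for 31 of the 35, against 7.36% of the probe sets kept. Of the 35, 18 also had the difference of over 1 log2 unit in both kinds of eye, against 0.36%. These shares are over probe sets that passed the filter, as 28 of the 35 did. Their median difference between arrays I and II was 1.02 in KPAW eyes and 2.66 in wild-type eyes. Krtap6-5, another keratin-associated protein, had scaled signals of 0.165 and 0.0202 on KPAW arrays I and II, against 0.935 and 0.0140 on wild-type arrays I and II. Krt27, an inner root sheath keratin, had 0.105 and 0.0174 in KPAW eyes, against 0.545 and 0.0156 in wild-type eyes. Both followed the 10 genes. Krtap21-1, Krtap19-9b, Krtap1-5, Krtap3-1, Krtap16-3 and Krtap13-1 had 0.0748 to 0.170 on KPAW array I, against 0.420 to 0.588 on wild-type array I. The exceptions to the order were Krt84, Krtap12-1, Krtap13 and Krtap5-4, named after their values were seen.

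The genes whose profile over the 8 arrays came nearest to the mean profile of the 10 genes were Krt34, Krt33b, Krtap19-2, Krtap19-3, Gm10228, Krtap16-3, Krtap3-1, Krtap19-5, Krtap14 and Krtap19-4, out of 9482 genes compared. Likeness was measured as the mean absolute difference of centred log2 values, which ran from 0.118 for Krt34 to 0.254 for Krtap19-4. Krt34, a type I hair keratin, had scaled signals of 0.0665 and 0.00901 on KPAW arrays I and II, against 0.318 and 0.0127 on wild-type arrays I and II. Of the 10, 9 are hair keratins or keratin-associated proteins by symbol, and Gm10228 is a predicted gene in the platform's annotation. Another probe set of the array carries the symbols of Gm10228 and Krtap6-1 together. The likeness rests largely on wild-type array I, where the mean profile stood 2.92 log2 units above its own average, against 0.82 on KPAW array I and -0.71 to -0.55 on the other 6 arrays.

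Regulators of the follicle did not show this size of difference, but many were dim. Of 23 on the array, only 11 passed the filter on dim probe sets, and the scale used understates differences of dim ones. Over all 23, 6 had the order, against 7.36% of the probe sets kept. With more than 1 log2 unit in both kinds of eye the count was 0, against 0.36%. Their median difference between arrays I and II was 0.11 in KPAW eyes and 0.16 in wild-type eyes. The 4 with the widest range at 5 days were dim. Msx2, a homeobox factor of the shaft, had scaled signals of 0.0203 and 0.0285 on KPAW arrays I and II, against 0.0943 and 0.0476 on wild-type arrays I and II. Gata3, a factor of the inner root sheath, had 0.0198 and 0.0120 in KPAW eyes, against 0.0492 and 0.0127 in wild-type eyes, the last at the lowest listed signal. Vdr, the vitamin D receptor, and Hoxc13, an activator of hair keratin genes, had 0.0142 and 0.0207 on KPAW array I, against 0.0572 and 0.0400 on wild-type array I. All 4 were highest on wild-type array I, and none of them passed the filter on dim probe sets. Padi3, the enzyme that converts arginine to citrulline in trichohyalin, had 0.0499 and 0.0459 in KPAW eyes, against 0.149 and 0.0339 in wild-type eyes. Dsc2, a desmosomal cadherin of many epithelia, had 0.451 and 0.0685 in KPAW eyes, against 0.0884 and 0.116 in wild-type eyes. Padi3 was thus highest where the hair genes were, and Dsc2 was highest on KPAW array I. Of the transglutaminases that cross-link these proteins, Tgm3 had 0.0565 and 0.0283 in KPAW eyes, against 0.0672 and 0.0394 in wild-type eyes, and Tgm1 had 0.0793 and 0.0165 in KPAW eyes, against 0.0243 and 0.0196 in wild-type eyes.

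The surface keratins followed the hair genes in part. Of 22 listed, 20 were on the array, and their median difference between arrays I and II was 2.28 log2 units in KPAW eyes but 0.07 in wild-type eyes. Among the 20, 5 had the order of the hair genes, against 7.36% of all probe sets kept. A difference above 1 log2 unit in KPAW eyes alone was seen for 12, against 1.64%. KPAW array I was above wild-type array I for 14 of the 20, the opposite of all 10 hair genes. Summed over the list, the scaled signal was 27.02 and 3.95 on KPAW arrays I and II, against 8.86 and 5.47 on wild-type arrays I and II.

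**Figure D2:**
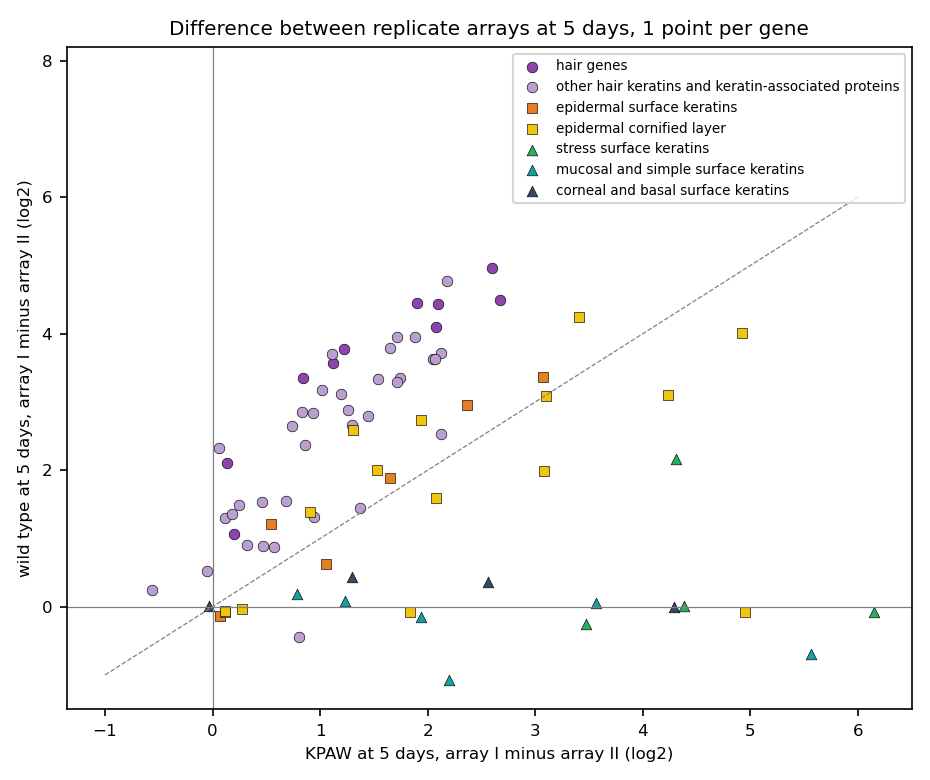
Difference between arrays I and II at 5 days in KPAW eyes (horizontal axis) and in wild-type eyes (vertical axis), both in log2 units, with 1 point per gene; the dashed line marks equal differences. The 10 hair genes (dark purple) lie above the line, with medians of 1.56 in KPAW eyes and 3.94 in wild-type eyes, while the stress, mucosal and corneal or basal surface keratins (triangles) mostly lie near 0 on the vertical axis. Epidermal keratins and cornified layer genes (squares) lie on both sides of the line, and 10 of the 15 cornified layer genes exceed 1 on the vertical axis.

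Of the 5 surface keratins with the order of the hair genes, 4 were on the list of epidermal keratins. Krt1, the type II keratin of the spinous and granular layers, had scaled signals of 0.835 and 0.0808 on KPAW arrays I and II, against 1.47 and 0.124 on wild-type arrays I and II. Krt10, its type I partner, had 0.814 and 0.141 in KPAW eyes, against 1.25 and 0.143 in wild-type eyes. Krt79, a keratin of the follicle's opening and of gland ducts, had 0.152 and 0.0341 in KPAW eyes, against 0.289 and 0.0626 in wild-type eyes. All 3 were highest on wild-type array I, as the hair genes were. KPAW array I reached 56.8%, 65.3% and 52.4% of wild-type array I for Krt1, Krt10 and Krt79. For the hair genes the share was 13.9% to 51.1%, so that Krt79 lay just above Krt32, the highest of them. Krt77, a keratin of the epidermis, had the order too, with 0.0931 and 0.0574 in KPAW eyes, against 0.126 and 0.0421 in wild-type eyes. Krt80 had its highest value on KPAW array I, at 0.219 against 0.159 on wild-type array I, and Krt2 was dim on all 8 arrays (0.00963 to 0.0256).

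Most basal, mucosal and stress keratins were high on KPAW array I and on no other array of 5 days. Krt14, the type I keratin of basal cells, had scaled signals of 3.69 and 0.169 on KPAW arrays I and II, against 0.361 and 0.363 on wild-type arrays I and II. Krt6a, a keratin of the follicle's companion layer and of activated epidermis, had 4.76 and 0.209 in KPAW eyes, against 0.295 and 0.294 in wild-type eyes. Krt4, a keratin of mucosal surfaces, had 1.40 and 0.00901 in KPAW eyes, against 0.0948 and 0.165 in wild-type eyes. The wild-type arrays I and II of these 3 genes differed by -0.01, 0.01 and -0.69 log2 units in the same order of genes. On these probe sets, array I of wild-type eyes did not stand out. Krt5 (2.56 and 0.36), Krt13 (3.57 and 0.06), Krt7 (1.94 and -0.15) and Krt6b (3.47 and -0.26) had the same pattern in their differences between arrays I and II, given for KPAW and then for wild-type eyes. Krt16 was the extreme, with 2.18 on KPAW array I and no more than 0.0127 on the other 3 arrays of 5 days. For Krt14 the pattern depended on the probe set. Another had deposited signals of 0.306 and 0.153 on wild-type arrays I and II, against 2.375 and 0.149 on KPAW arrays I and II. A further, dim Krt14 probe set had deposited signals of 0.0432 and 0.0468 on wild-type arrays I and II.

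Krt17, which is made in the outer root sheath of the follicle as well as in activated epidermis, lay between the patterns. Its scaled signals were 0.576 and 0.00901 on KPAW arrays I and II, against 0.130 and 0.0127 on wild-type arrays I and II. Both arrays II stood at the lowest listed signal, and array I was above array II in both kinds of eye, but KPAW array I was the higher. Krt15, a keratin of basal and follicle stem cells, had 1.73 and 0.694 in KPAW eyes, against 1.79 and 1.31 in wild-type eyes, which is the order of the hair genes with a small lead of wild-type array I. Krt12, the cornea keratin, had 0.721 and 0.739 in KPAW eyes, against 0.553 and 0.548 in wild-type eyes, and did not separate arrays I from arrays II. The simple epithelium keratins Krt8, Krt18 and Krt19 had 0.559 to 0.733 on KPAW array I, against 0.152 to 0.666 on wild-type array I.

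**Figure D3:**
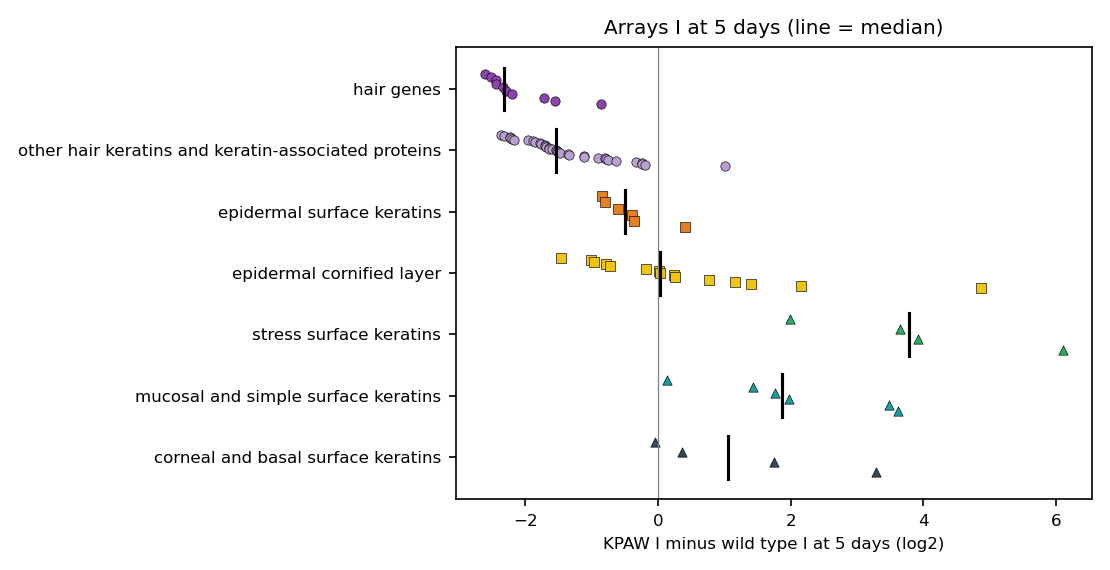
KPAW array I minus wild-type array I at 5 days in log2 units, with 1 point per gene and a black line at the median of each list. The 10 hair genes lie at a median of -2.32 and the epidermal surface keratins at -0.49, whereas the stress keratins lie at 3.78, the mucosal and simple keratins at 1.87 and the corneal and basal keratins at 1.06.

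Marker lists of neighbouring tissues were set beside the hair genes. Cornified layer genes of the epidermis, 15 of which were on the array, had medians of array I minus array II of 1.93 log2 units in KPAW eyes and 1.99 in wild-type eyes, and the difference exceeded 1 log2 unit for 11 of the 15 in KPAW eyes and 10 in wild-type eyes. Sprr1b, a precursor of the cornified envelope, was high on KPAW array I and at the lowest listed signal on the other 3 arrays of 5 days. The summed scaled signal of the list was 6.26 and 0.518 on KPAW arrays I and II, against 4.07 and 0.531 on wild-type arrays I and II. Lor, loricrin of the cornified envelope, had 0.298 and 0.00901 in KPAW eyes, against 0.620 and 0.0127 in wild-type eyes. Of the 15, 6 had the order of the hair genes. Sebaceous and meibomian gland genes, 5 on the array, summed to 1.54 and 0.709 in KPAW eyes, against 1.34 and 0.678 in wild-type eyes. Pparg stood at the lowest listed signal on every array, and Mgst1, which is made in many tissues, had 1.14 and 0.424 in KPAW eyes, against 0.712 and 0.459 in wild-type eyes. Dermis genes (14.3 and 12.6 in KPAW eyes, 16.5 and 16.2 in wild-type eyes) and skeletal muscle genes (3.61 and 6.48 in KPAW eyes, 5.93 and 4.77 in wild-type eyes) did not follow the order. Of the 5 gland genes, 2 had the order of the hair genes and 1 exceeded 1 log2 unit between arrays I and II in each kind of eye. Over all probe sets kept, the order was met by 7.36%. A difference of that size was met by 2.2% in KPAW eyes and 1.02% in wild-type eyes. The part of epidermal or gland tissue in the hair values was not tested.

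With the arrays averaged, KPAW minus wild type at 5 days had a median of -1.18 log2 units over the 10 genes (-1.43 to -0.42), with standard errors of 0.305 to 1.41. It is a description and no test is given for it. The median rested on single arrays. It was 0.85, the opposite direction, without wild-type array I, and -3.12 without wild-type array II. It was -2.00 without KPAW array I and -0.31 without KPAW array II.

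The difference between KPAW and wild type at 1 month was taken between arrays that did not lead to the choice of the genes. Its standard errors and the filter draw on all 8 arrays, those of 5 days among them. The test could bear on few of the 10 there. Krt25, Tchh and Krt33a stood at the lowest listed signal on all 4 arrays and could show no difference, and 4 genes, Krt71, Krt81, Krt32 and S100a3, had a mean signal at 1 month above the filter value. None of those 4 passed, with limma adjusted p-values of 0.906 (Krt32) to 0.998 (Krt81). In the same fit 0 of 10 were called, against 4 of 15838 probe sets, 0.0253% (limma, Benjamini-Hochberg adjusted p under 0.05), and 1100 probe sets had an unadjusted p under 0.05. The median difference was 0.05 log2 units over the 10 genes (-0.23 to 0.30) and -0.01 over the 7 that lay above the lowest listed signal on at least 1 array of 1 month, against -0.01 over all probe sets kept. Standard errors were 0.305 for Krt32 to 1.41 for Krtap8-1, and differences of that size, or well above it, would not have been called. In the same fit Lce3c, a cornified layer gene of the epidermis, differed by 4.25 log2 units (SE 0.553). It was not called (limma adjusted p = 0.0865). The standard errors of the hair genes take in the spread of the arrays of 5 days, which share the fit. Leaving those arrays out, with the arrays of 1 month fitted alone, also gave 0 calls.

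The values of Krt25, Tchh and Krt33a at 1 month have no order. Krtap8-1, the keratin-associated protein described above, had scaled signals of 0.0367 and 0.0378 in KPAW eyes, against 0.0382 and 0.0347 in wild-type eyes. Krt71 had 0.0678 and 0.0552 in KPAW eyes, against 0.0723 and 0.0560 in wild-type eyes. In both, the groups overlapped. S100a3 had 0.148 and 0.107 in KPAW eyes, against 0.101 and 0.0965 in wild-type eyes, a difference of 0.30 log2 units (SE 1.01, limma adjusted p = 0.952) in groups that did not overlap after scaling. The deposited values, 0.142 and 0.112 in KPAW eyes against 0.142 and 0.101 in wild-type eyes, did overlap, and the difference was 0.10 without KPAW array I and 0.50 without KPAW array II. Both KPAW arrays were above both wild-type arrays in 17% of all probe sets kept. Krt32 had 0.0780 and 0.0841 in KPAW eyes, against 0.0941 and 0.0914 in wild-type eyes, a difference of -0.16 (SE 0.305, limma adjusted p = 0.906), again without overlap. Both KPAW arrays were below both wild-type arrays in 19.6% of all probe sets. Krt81 had 0.166 to 0.194 over the 4 arrays, Krt35 had 0.0256 to 0.0396 and Krtap15 had 0.0193 to 0.0398, each with overlapping groups.

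Between replicates of 1 month, array I minus array II could be read for the 7 hair genes above the lowest listed signal. It had a median of -0.02 log2 units in KPAW eyes (-0.38 to 0.40) and 0.03 in wild-type eyes (-0.43 to 0.28). The summed scaled signal of the 10 genes was 0.593 and 0.552 on KPAW arrays I and II, against 0.544 and 0.571 on wild-type arrays I and II. All 4 scaled sums lie above those of the arrays numbered II at 5 days, which were 0.512 in KPAW eyes and 0.453 in wild-type eyes. They lie under those of the arrays numbered I. The lead over KPAW array II of 5 days depended on scaling. In the deposited values, the sum of KPAW array I of 1 month was not above it. The parts of the list differed. Krtap8-1, Krtap15 and S100a3 summed to 0.163 to 0.214 at 1 month, against 0.108 and 0.0871 on KPAW and wild-type arrays II of 5 days. S100a3 alone had 0.0965 to 0.148, against 0.0474 and 0.0174. Inner root sheath genes summed to 0.0744 to 0.0887, against 0.107 and 0.112. Hair shaft keratins summed to 0.291 to 0.324, against 0.297 and 0.254.

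Surface keratins at 1 month again differed from the hair genes. Of the 19 that passed the filter, 0 were called, with a lowest limma adjusted p of 0.487, and their median difference, KPAW minus wild type, was 0.91 log2 units (-2.32 to 4.41). The count depended on the processing: it was 4 with values as deposited, 3 with the arrays of 1 month fitted alone (Krt14, Krt1 and Krt10), and 0 to 2 with each array left out in turn. Krt12 had a difference of -2.32, which was -0.50 without KPAW array I and -4.14 without KPAW array II. Krt10 had scaled signals of 5.80 and 1.89 in KPAW eyes, against 0.127 and 0.145 in wild-type eyes, a difference of 4.41 (SE 1.04, limma adjusted p = 0.487). Krt1 had 3.93 and 2.09 in KPAW eyes, against 0.127 and 0.126 in wild-type eyes, a difference of 4.29 (SE 1.17, limma adjusted p = 0.607). Both KPAW arrays were above both wild-type arrays for 14 of the 20 surface keratins, Krt1 and Krt10 among them, and below them for 2, against 17% and 19.6% of all probe sets kept. On the 4 arrays of 1 month, then, Krt1 and Krt10 were high in KPAW eyes. Of the hair genes with a mean above the filter value there, Krt32 differed by -0.16 log2 units (SE 0.305) and Krt71 by -0.04 (SE 0.952). Krt81 differed by -0.01 (SE 0.544) and S100a3 by 0.30 (SE 1.01). Krt25, Tchh and Krt33a, at the lowest listed signal, allow no such comparison.

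**Figure D4:**
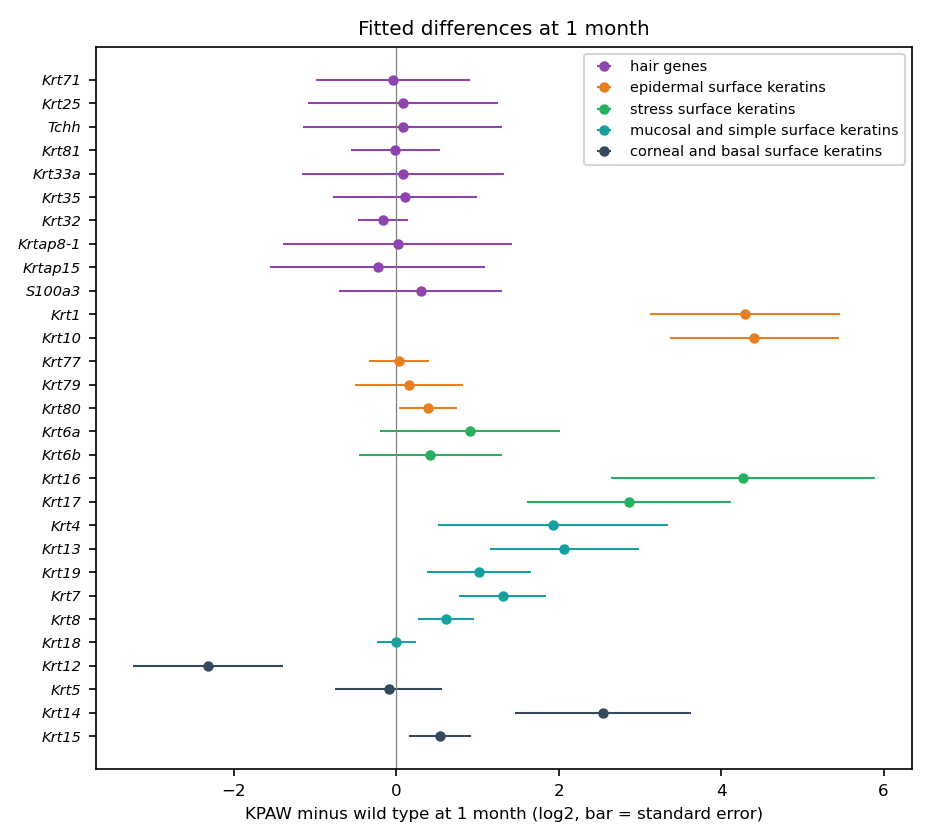
Fitted difference between KPAW and wild-type eyes at 1 month (log2, horizontal axis) with its standard error as a bar, for the 10 hair genes and the 19 surface keratins that passed the filter. The hair genes lie between -0.23 and 0.30, and the surface keratins between -2.32 (Krt12) and 4.41 (Krt10). No gene shown passed the adjusted threshold in this fit; Krt12 runs from -4.14 to -0.50 with each array left out.

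Across age, 1 month minus 5 days had a median of -2.05 log2 units over the 10 genes in wild-type eyes (-2.74 to -0.25) and -0.86 in KPAW eyes (-1.61 to 0.50). Both use the arrays of 5 days and are descriptions, without a test. The ages also differed in sex-linked transcripts: Xist had 0.0818 and 0.0524 on wild-type arrays I and II of 1 month, against 2.95 and 3.64 on those of 5 days, so that age and this signal cannot be told apart in wild-type eyes. In KPAW eyes Xist had 0.0861 and 0.0621 on arrays I and II of 1 month, against 0.0821 and 3.13 on those of 5 days. The wild-type median was -0.20 without array I of 5 days and -4.06 without array II, and the KPAW median was -0.01 and -1.74 in the same way. Both arrays of 1 month lay below both arrays of 5 days for 6 of the 10 genes in wild-type eyes, where 33% of all probe sets did, and for 4 in KPAW eyes, where 32.2% did. Of the 6, Krt25, Tchh and Krt33a stood at the lowest listed signal on wild-type array II of 5 days as well, so that Krt71, Krt35 and Krtap8-1 are left. These were separated only after scaling. In the deposited values, wild-type array I of 1 month was above wild-type array II of 5 days. The values were 0.102 against 0.0683 for Krt71, 0.0381 against 0.0280 for Krt35, and 0.0537 against 0.03775 for Krtap8-1. S100a3 went the other way on the arrays numbered II, with 0.107 and 0.0965 on KPAW and wild-type arrays II of 1 month, against 0.0474 and 0.0174 on those of 5 days.

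All 10 genes passed the filter on dim probe sets, a mean scaled signal above 0.0406. Without wild-type array I of 5 days the mean of Krt25, Tchh, Krt33a and Krt35 was 0.0230 to 0.0401, which is under that limit, so 4 of the 10 passed only through that array.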

How the data were processed

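The table the authors deposited holds a processed signal for each probe set on each array, per the file headers, and the steps that made it are not given in the sources used here. The signals were treated as linear. The 64 control probe sets were left out of 22690. Arrays were scaled to a common trimmed mean of 0.180, the median over the 8 arrays, with 2% trimmed off each end. Values were taken as log2(scaled signal + 0.0211), the pseudocount being the 20th percentile, and probe sets with a mean above the 30th percentile (15838) were kept. A limma model (version 3.58.1, R 4.3.3) with 4 group means, a variance trend and 4 residual degrees of freedom was fitted to all of them, with Benjamini-Hochberg adjustment over all of them at 0.05. Precision is limited by the number of arrays. The fit was tested on simulated data.

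The 10 genes and all lists were chosen with earlier results of these data known. Probe sets are those whose platform symbol is a single gene, with the highest mean where a gene has several. The text names every one of the 10 genes, the 8 other hair genes with the highest signal at 5 days, all surface keratins, the 4 regulators and 4 hardening genes with the widest range at 5 days, up to 3 markers a list, and the 10 genes nearest in profile. Of the platform's probe sets, 20380 carry 1 symbol, 691 several and 1555 none. Numerals I and II were checked for pairing: deviations of same-numbered arrays correlated at 0.309 between KPAW and wild type at 5 days and at 0.0162 between them at 1 month, and at -0.0174 to 0.199 in the other 4 pairs of groups, so they were not taken as pairs. Scaling, pseudocount, filter, floor, probe set choice, variance trend, samples fitted, block and single arrays were varied. Promoter windows are from RefSeq.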

Additional observations from a re-analysis of the deposited data

Results flagged for a closer look

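Krt12, the keratin of the cornea, was picked out because KPAW eyes stood above wild-type eyes at 5 days and below them at 1 month on every array. Its scaled signals were 0.391 and 5.13 on KPAW arrays I and II of 1 month, against 6.76 and 7.82 on the wild-type arrays of that age. At 5 days they were 0.721 and 0.739 in KPAW eyes, against 0.553 and 0.548 in wild-type eyes. The change of the difference between KPAW and wild type, 1 month minus 5 days, was -2.72 log2 units (SE 1.30) and did not pass the limma test (adjusted p = 0.809). The difference at 1 month, -2.32, rested on KPAW array I, which also had the low retina signal: it was -0.50 without that array and -4.14 without KPAW array II. The 10 hair genes could not be picked out in this way, because at 5 days KPAW array I lay between wild-type arrays I and II for each of them.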

How the results depend on the processing

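At 1 month, 0 of the 10 hair genes were called under every alternative run, and with the replicate block (numerals I and II as a block) the count was again 0 and the median 0.05. The block moved no call of a hair gene. That median was -0.11 with values as deposited and, chosen after seeing the data, -0.01 without the 3 genes at the lowest listed signal. Among single genes, Krt81 (main -0.01) was 0.01 after quantile normalization and 0.02 with equal medians. With values as deposited, Krt35 was -0.05, Krtap8-1 -0.17, Krt77 -0.17 and Krt79 -0.02. Leaving out each array in turn gave -0.18 to 0.10 for Krt71, -0.11 to 0.09 for Krt81, -0.08 to 0.30 for Krt35, -0.02 to 0.06 for Krtap8-1, -0.01 to 0.09 for Krt77 and -0.06 to 0.39 for Krt79. Surface keratins called, 0 in the report, were 4 with values as deposited (Krt12, Krt1, Krt10 and Krt16) and 3 with only the 2 groups compared (Krt14, Krt1 and Krt10), and were 0 to 2 with each array left out. The hair gene median of array I minus array II in KPAW eyes was 1.30 with values as deposited, 1.88 with the pseudocount at the 5th and 0.85 at the 50th percentile. In wild-type eyes it was 4.46 and 2.81 at those percentiles. For surface keratins it was 1.95 as deposited and 1.89 at the 50th percentile in KPAW eyes, and 0.25 as deposited and 0.21 with the median of a gene's probe sets in wild-type eyes. With each array left out, the 5-day median of KPAW minus wild type ran from -3.12 to 0.85, that of age from -4.06 to -0.20 in wild-type eyes and from -1.74 to -0.01 in KPAW eyes. With a single array left in a group, that array is assumed to vary like the others. The causes of these changes were not tested. Krt25, Tchh and Krt33a, at the lowest listed signal at 1 month, allow no difference to be read there.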

Other observations

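Among all probe sets kept, 57 had the order of the hair genes at 5 days with a difference of over 1 log2 unit between arrays I and II in both kinds of eye. They were 7 of the 10 hair genes, 23 probe sets of other hair keratins or keratin-associated proteins, 10 of the epidermal lists, 14 of other genes and 3 without a symbol. This sorting went by symbol, and the predicted genes Gm10228 and Gm10229 were counted as other genes. The other genes were named after their values were seen. Crct1, a gene of the epidermal differentiation complex, had scaled signals of 0.307 and 0.00901 on KPAW arrays I and II, against 0.437 and 0.0172 on wild-type arrays I and II. Lce1h, a late cornified envelope gene, had 0.0942 and 0.0178 in KPAW eyes, against 0.211 and 0.0131 in wild-type eyes. Dsp, the desmosome protein desmoplakin, had 0.338 and 0.127 in KPAW eyes, against 0.480 and 0.130 in wild-type eyes.

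At 1 month, 3 genes of that set known from the epidermis, chosen after their values were seen, had higher values in KPAW eyes than in wild-type eyes, and Krt79 of the same set did not separate the groups. Crct1 had 1.14 and 0.463 in KPAW eyes of 1 month, against 0.0205 and 0.0385 in wild-type eyes of that age. Lor had 1.96 and 0.979 in KPAW eyes, against the lowest listed signal on both wild-type arrays. Krt79 had 0.0609 and 0.0425 in KPAW eyes, against 0.0340 and 0.0544 in wild-type eyes. Calm4, another gene of the upper epidermis, had 3.71 and 1.37 in KPAW eyes, against 0.0398 and 0.0469 in wild-type eyes. The 10 hair genes had summed signals of 0.593 and 0.552 in KPAW eyes, against 0.544 and 0.571 in wild-type eyes.

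Gm10229, a predicted gene, had 0.189 and 0.0583 on KPAW arrays I and II of 5 days, against 0.977 and 0.0601 on the wild-type arrays, and all 3 arrays of 1 month other than wild-type array II stood at the lowest listed signal for it.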
